A study of Mus musculus with 23 samples.

Results

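The transcripts examined here are 10 genes used to name macrophage states in tumors: Spp1, Arg1, Nos2, Mrc1, Chil3, Trem2, C1qa, C1qb, C1qc and Apoe. They were chosen by symbol, with no measured value in the rule, and all 10 were matched through GENCODE to an identifier among the 26869 genes of the table. The RNA came from 23 subcutaneous tumors of MC38, a mouse colon carcinoma cell line of C57BL/6 origin, and each tumor was sequenced in bulk. Hosts were female F1 mice, 8 to 12 weeks old, from Collaborative Cross (CC) dams and C57BL/6J sires, so every host carried a C57BL/6J genome copy beside that of its CC line. Each host received 500000 MC38 cells, and when its tumor measured 75 to 110 mm3 it was given a single 200 µg intraperitoneal dose of isotype antibody or of aPD1, an antibody that blocks the PD-1 receptor of T cells. Tumors were collected 48 h later. The labels name the host genotypes C57BL/6J x CC001/UncJ, CC002/UncJ, CC075/UncJ, CC036/UncJ, CC079/TauUncJ and CC080/TauUncJ, called CC001F1 to CC080F1 below. The study's text, not the labels, places CC001F1, CC002F1 and CC075F1 among responder (R) lines and CC036F1, CC079F1 and CC080F1 among non-responder (NR) lines. Each of the 12 groups of line and antibody held 2 tumors, except CC080F1 with aPD1, which held 1, so that 12 R tumors (6 isotype, 6 aPD1) and 11 NR tumors (6 isotype, 5 aPD1) were compared. The labels call the tumors of a group biological replicates and name no litter or day, so p-values measure the spread between these tumors, and all results concern a single tumor cell line.

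Macrophages in tumors take on a range of states, set by the tissue signals they receive and by whether they arose from recent monocytes or from resident cells. C1qa, C1qb and C1qc encode the 3 chains of C1q, the recognition subunit that starts the classical complement pathway, and tumor macrophages are a main source of C1q. Trem2 encodes a lipid-sensing receptor and Apoe a lipid carrier, and both mark lipid-laden macrophages. Spp1 encodes osteopontin, a secreted glycoprotein that binds CD44 and integrins and that tumor and stromal cells can also make. Arg1 (arginase) and Nos2 (inducible nitric oxide synthase) use the same substrate, arginine, and are the classical readouts of interleukin-4 and interferon-gamma activation. Mrc1 (the mannose receptor CD206) and Chil3 (the chitinase-like protein Ym1) are further readouts of the interleukin-4 state, and Chil3 is also made by monocytes and neutrophil precursors.

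Libraries held 14494014 to 71868253 expected counts with a median of 42327589, and 6 of them, 2 from R and 4 from NR tumors, were shallow beside the other 17. Values below are counts normalized to a common depth over all 23 tumors. Macrophage transcripts were plentiful: all 10 pan-macrophage markers were seen in every tumor, with Adgre1 at 2919 to 8805, Csf1r at 5154 to 14650 and Cd68 at 2578 to 6892 normalized counts. The neutrophil marker Ly6g was at 0 in every tumor, and the neutrophil list summed to 224.5 to 1752. The summed pan-macrophage level was 48250 to 95310 in R isotype tumors, 70440 to 126600 in R aPD1 tumors, 44400 to 78420 in NR isotype tumors and 57880 to 70220 in NR aPD1 tumors. Lyz2, with a median of 36420, was the largest part of this sum. The isotype tumors of the R line CC002F1, at 49210 and 48250, lay below every NR tumor except CC036F1 isotype replicate 2 (44400). That level moved with several genes described below. In bulk RNA, more macrophages and more RNA per macrophage cannot be told apart. A pair of CC036F1 tumors stood apart before any comparison. The isotype tumor numbered replicate 2 had the lowest pan-macrophage sum of the series (44400) and the lowest C1qa, C1qb, C1qc, Trem2 and Apoe. The aPD1 tumor numbered replicate 2 had the highest Spp1, Arg1, Mrc1 and Chil3. Class differences and correlations are therefore also given without their line.

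**Figure D1:**
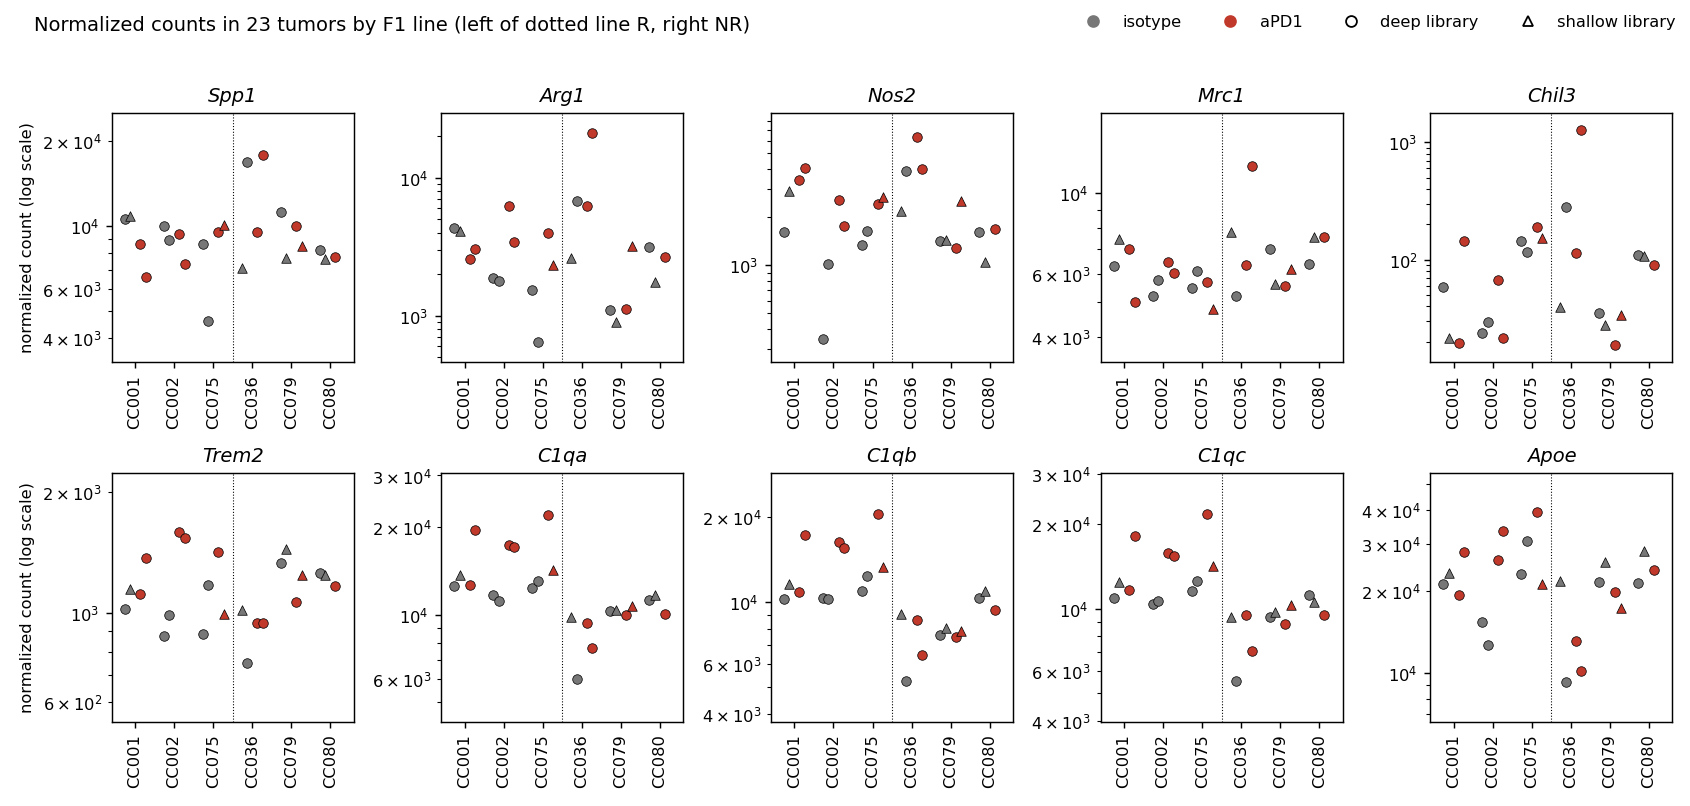
Normalized count (log scale) of each of the 10 genes in each of the 23 tumors, by host line, with R lines left and NR lines right of the dotted line. Grey points are isotype and red points aPD1 tumors, and triangles are shallow libraries. C1qa, C1qb and C1qc lie higher in the R lines than in the NR lines, and the 2 CC036F1 tumors that stood apart are visible in Spp1 and Chil3.

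Per kilobase of annotated exon, C1qa had the highest mean level over the 23 tumors (11890 normalized counts per kb). Apoe (10310) and C1qb (9992) followed, then C1qc (5998) and Spp1 (5725), and below these Arg1 (1687), Mrc1 (1012), Nos2 (525), Trem2 (233) and Chil3 (82.9). The genes also differed in how much they varied. The highest tumor exceeded the lowest by 2.12 times for Trem2 and 2.48 times for Mrc1, by 3.64 to 4.27 times for the C1q genes, Spp1 and Apoe, by 18.4 times for Nos2, by 32.5 times for Arg1 and by 67.8 times for Chil3. When the variance of the log2 values was split by the design, 48.0% to 53.9% of that of the C1q genes lay between the R and NR classes, against 0.6% for Arg1, 1.0% for Trem2 and 1.5% for Nos2. Lines within a class held 49.9% of the variance of Arg1, 48.3% of that of Nos2 and 54.5% of that of Chil3. For Spp1 (53.1%) and Mrc1 (50.6%), the largest share lay between tumors of the same line and antibody.

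The C1q chains were the genes that separated the classes. They sit side by side on the minus strand of chromosome 4 within 18.7 kb (GRCm38, chr4:136880129-136898803), with C1qa (ENSMUSG00000036887) at 136895917 to 136898803, C1qc (ENSMUSG00000036896) at 136889804 to 136893065 and C1qb (ENSMUSG00000036905) at 136880129 to 136886187. The 250 bases before the RefSeq start sites of C1qb and C1qc are printed because these neighbouring genes moved together, and that of Spp1 (ENSMUSG00000029304, chr5:104435118-104441050, plus strand) because it did not follow them. They are RefSeq reference sequences of GRCm38.p6, not host alleles, written 5′ to 3′ on the strand of the gene. Capitals mark GAGGAA, a core bound by the myeloid factor PU.1, or its reverse complement TTCCTC.
C1qb (chr4:136886201-136886450, minus): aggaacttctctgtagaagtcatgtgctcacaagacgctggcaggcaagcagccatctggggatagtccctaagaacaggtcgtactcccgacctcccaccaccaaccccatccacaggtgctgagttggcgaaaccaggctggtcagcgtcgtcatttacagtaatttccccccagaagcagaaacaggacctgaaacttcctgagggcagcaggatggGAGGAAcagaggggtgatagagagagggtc
C1qc (chr4:136892915-136893164, minus): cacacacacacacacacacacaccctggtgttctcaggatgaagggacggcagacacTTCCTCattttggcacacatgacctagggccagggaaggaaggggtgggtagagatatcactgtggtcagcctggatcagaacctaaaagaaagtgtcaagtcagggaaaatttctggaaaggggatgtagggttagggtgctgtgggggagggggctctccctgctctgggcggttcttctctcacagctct
Spp1 (chr5:104434861-104435110, plus): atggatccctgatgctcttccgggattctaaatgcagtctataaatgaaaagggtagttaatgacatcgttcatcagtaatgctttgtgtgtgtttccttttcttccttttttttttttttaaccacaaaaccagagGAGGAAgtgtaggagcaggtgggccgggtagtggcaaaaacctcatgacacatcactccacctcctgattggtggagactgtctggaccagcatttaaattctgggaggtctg
The core occurred 1 time in each, beginning 30 bases before the RefSeq start site of C1qb, 193 bases before that of C1qc and 113 bases before that of Spp1. The RefSeq start site of C1qc lies inside the GENCODE span given above, which ends at 136893065. Part of the printed C1qc stretch is thus within the gene as GENCODE places it. It was present on either strand in 28.3% of 32851 promoter windows that ran 50 bases past the start site. Windows of that length were also searched on both strands for a C/EBP site (TTGCGCAA), a gamma-activated site (TTCNNNGAA), an interferon-stimulated element and an AP-1 site, which were held by 0.2% to 8.3% of all promoters. The MARE core TGCTGAC was held by 4.7% of promoters. An E-box (CACGTG) was held by 7.2%, and the CCAAT box and the TATA box, spelled TATAAA, were the commonest of these at 37.4% and 13.6%. None of these was found in the C1qb and C1qc windows. The Spp1 window held the interferon-stimulated element (3.4% of promoters), the CCAAT box and the TATA box spelling, none of which overlapped GAGGAA there. Their first bases lay at -157, -46 and -211 from the start site used above. These are matches of letters, and their use as promoter elements was not tested. RefSeq has another start site of Spp1, whose window (chr5:104435942-104436241) held none of these motifs and no GAGGAA.

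In CC001F1 tumors C1qa was 12572 and 13695 normalized counts with isotype and 12645 and 19479 with aPD1. In CC002F1 it was 11657 and 11157 with isotype and 17319 and 17123 with aPD1, and in CC075F1 12337 and 13083 with isotype and 21881 and 14259 with aPD1. Thus 5 of the 6 R aPD1 tumors lay above every R isotype tumor. In the NR lines, CC036F1 had 9779 and 6006 with isotype and 9384 and 7708 with aPD1. CC079F1 had 10318 and 10376 with isotype and 9974 and 10736 with aPD1, and CC080F1 had 11227 and 11675 with isotype and 10030 with aPD1. The NR lines showed no such layout, and 10 of the 12 R tumors, all but the CC002F1 isotype pair, were above every NR tumor. For C1qb 7 of the 12 R tumors and for C1qc 9 of the 12 were above every NR tumor. C1qb ran from 10186 to 12358 (median 10588) in R isotype and from 10831 to 20434 (median 15882) in R aPD1 tumors. In NR tumors C1qb ran from 5258 to 10894 (median 8561) with isotype and was 8624, 6469, 7504, 7891 and 9341 with aPD1. C1qc ran from 10419 to 12531 (median 11259) in R isotype and from 11653 to 21710 (median 15587) in R aPD1 tumors, and from 5543 to 11221 (median 9552) in NR isotype tumors. With aPD1 the NR values of C1qc were 9474, 7051, 8838, 10306 and 9490. For each chain the R and NR ranges overlapped with isotype and did not overlap with aPD1. Of 12055 genes with a mean of at least 100 normalized counts, 4.67% separated the classes in this way in aPD1 tumors, among them 3 of the 10 genes (the C1q chains), and 1.44% did in isotype tumors, among them none of the 10.

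With all tumors in the fit and antibody as a covariate, C1qa was 1.48-fold higher in R than in NR tumors (log2 difference 0.57 ± 0.11 SE, DESeq2 adjusted p = 7.92e-06). C1qb was 1.56-fold higher (0.65 ± 0.14, adjusted p = 0.0003) and C1qc 1.47-fold higher (0.55 ± 0.11, adjusted p = 4.38e-05). These 3 were the called genes among the 10, where 14.4% of all genes tested were called and 7.66% were called higher in R. The edgeR quasi-likelihood test, which called 6.7% of genes, also called these 3 (adjusted p = 0.00138 to 0.00237). In isotype tumors alone none of the 10 was called by DESeq2, where 5.53% of genes were, nor by edgeR, where 0.122% were, and 3 had an unadjusted p below 0.05 by either tool. There the differences were 0.33 ± 0.12 for C1qa (adjusted p = 0.0822), 0.36 ± 0.13 for C1qb (adjusted p = 0.0819) and 0.30 ± 0.12 for C1qc (adjusted p = 0.142). Without line CC080F1 all 3 chains passed the threshold in isotype tumors, and without any other single line none did. Over these omissions of a line, the lowest differences were 0.187 for C1qa, 0.241 for C1qb and 0.159 for C1qc. The highest DESeq2 adjusted p-values were 0.327, 0.338 and 0.363. In aPD1 tumors alone C1qa was 1.79-fold (0.84 ± 0.13, adjusted p = 9.2e-08), C1qb 1.95-fold (0.97 ± 0.14, adjusted p = 7.4e-09) and C1qc 1.79-fold higher (0.84 ± 0.14, adjusted p = 8.01e-07). They were again the 3 called of the 10, where 7.93% of genes were called and 5.94% were called higher, and edgeR called the same 3 (2.25% of genes). Because line is nested in class, these tests count each tumor on its own. When limma took line as a random effect, 0.798% of genes were called in aPD1 tumors, and the chains kept adjusted p-values of 0.0249 to 0.0327. Without CC036F1 the chains differed by 0.42 to 0.54 over all tumors (DESeq2 adjusted p = 0.000735 to 0.00841) and by 0.74 to 0.92 in aPD1 tumors (1.99e-06 to 8e-05).

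In the 3 R lines, with line as a term, aPD1 raised C1qa 1.37-fold (log2 0.46 ± 0.12, adjusted p = 0.00605), C1qb 1.42-fold (0.50 ± 0.12, adjusted p = 0.00312) and C1qc 1.4-fold (0.49 ± 0.12, adjusted p = 0.00312). This comparison and that of R with NR aPD1 tumors share the 6 R aPD1 tumors. C1qb was higher with aPD1 by 0.33, 0.63 and 0.51 on the log2 scale in CC001F1, CC002F1 and CC075F1, and the tumors of the antibodies did not overlap in CC002F1 and CC075F1. The pan-macrophage markers moved with the C1q chains: 7 of 10 rose with aPD1 in R lines (median log2 change of the list 0.45) and 7 of 10 were higher in R over all tumors (median 0.39). The levels of the chains relative to these markers are given on the macrophage scale below. The part of macrophage content in the C1q result was not tested.

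Markers of other cell types also differed between the classes in aPD1 tumors, where 1.99% of all genes were called lower. All 4 B-cell markers were lower in R (median log2 difference -2.69), with a summed level of 77.02 to 197.2 normalized counts in R and 147.2 to 1623 in NR aPD1 tumors. The highest NR sums were 1623 in the CC080F1 tumor and 773.6 in CC079F1 replicate 1, and the others were 147.2 to 327.4. Of 5 skeletal-muscle markers 4 were higher in R (median 4.54), with sums of 40.06 to 16870 in R and 33.89 to 349.4 in NR. The R sums were 16870 in CC001F1 replicate 1, 6170 in CC075F1 replicate 1 and 1193 in CC002F1 replicate 2. The other R aPD1 tumors had 40.06 to 285.8, within the NR range, so the muscle difference rested on a few tumors. Adipoq, from a list of 4 adipocyte markers, was lower (-3.03 ± 0.93), with list sums of 2.778 to 68.67 in R and 3.119 to 351.1 in NR. The high NR sums were 351.1 in CC080F1 and 245.7 and 82.88 in CC079F1. Those of CC036F1 (3.119 and 16.34) lay within the R range. Cd3e (1.58 ± 0.36) and Cd8a (1.87 ± 0.44), from a list of 4 T-cell markers, were higher. The other markers of these lists are not given for aPD1 tumors. Over all tumors no B-cell, muscle or adipocyte marker was called, 3 of 4 T-cell markers were higher in R (median 1.24), and 2 of 6 fibroblast markers, Pdgfra and Dcn, were lower. The T-cell sum was 448.6 to 1151 in R isotype, 609.8 to 2092 in R aPD1, 144.6 to 886.6 in NR isotype and 253.1 to 730.4 in NR aPD1 tumors. The part of these cell types in the C1q result was not tested.

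Trem2 and Apoe, the lipid-related genes, did not separate the classes over all tumors (log2 difference 0.04 ± 0.11 for Trem2, adjusted p = 0.851, and 0.34 ± 0.20 for Apoe, adjusted p = 0.261). Without CC036F1 these were -0.12 (adjusted p = 0.573) and 0.09 (adjusted p = 0.827). Trem2 (ENSMUSG00000023992, chr17:48346401-48354147) ran from 876 to 1173 (median 1004) in R isotype and from 994 to 1590 (median 1393) in R aPD1 tumors. In NR tumors Trem2 ran from 750 to 1443 (median 1249) with isotype and was 944, 944, 1061, 1243 and 1166 with aPD1. The isotype tumors of CC079F1 and CC080F1 (1242 to 1443) were thus above all R isotype tumors, and with aPD1 the ranges of the classes overlapped. In isotype tumors without CC036F1, Trem2 was lower in R (-0.38, adjusted p = 0.0177). Within R lines Trem2 rose 1.31-fold with aPD1 (0.39 ± 0.13, adjusted p = 0.0467), with its largest line difference in CC002F1, where tumors had 876 and 988 with isotype and 1590 and 1538 with aPD1. The call was lost on leaving out any of 8 of the 12 tumors.

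Apoe (ENSMUSG00000002985, chr7:19696109-19699188) was 21295 and 23480 normalized counts in CC001F1 isotype tumors and 19389 and 27903 with aPD1. In CC002F1 it was 15449 and 12700 with isotype and 26168 and 33480 with aPD1, and in CC075F1 23225 and 30784 with isotype and 39250 and 21321 with aPD1. CC002F1 was the R line in which the antibodies did not overlap. In NR tumors, Apoe was 21834 and 9195 with isotype and 13106 and 10131 with aPD1 in CC036F1, 21653 and 25689 against 19851 and 17326 in CC079F1, and 21405 and 28167 against 24013 in CC080F1. Classes overlapped under either antibody. In aPD1 tumors Apoe was 1.65-fold higher in R at an adjusted p of 0.0565 (0.72 ± 0.26), or 0.45 without CC036F1 (adjusted p = 0.362), and the antibody difference in R lines was 0.43 ± 0.22 (adjusted p = 0.32). In the 17 deep libraries Apoe and Trem2 both passed the threshold in aPD1 tumors (adjusted p = 0.0227 and 0.00827), where 6.0% of genes did. In R lines the deep libraries also gave a called rise of Apoe with aPD1 (0.64 ± 0.17, adjusted p = 0.00768), where 5.91% of genes were called.

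Nos2 (ENSMUSG00000020826, chr11:78920787-78960254) was the gene of the 10 with the largest called response to aPD1 in R lines. With isotype it was 1611 and 2906 normalized counts in CC001F1, 347 and 1021 in CC002F1 and 1342 and 1640 in CC075F1. With aPD1 it was 3434 and 4075 in CC001F1, 2573 and 1765 in CC002F1 and 2410 and 2688 in CC075F1. In each R line both aPD1 tumors exceeded both isotype tumors, and the rise was 2.07-fold (1.05 ± 0.30, adjusted p = 0.0167). Together with C1qa, C1qb, C1qc and Trem2 this made 5 of the 10 genes called in R lines, all higher, where 5.26% of all genes were called and 4.85% were called higher. The median log2 change was 0.47 over the 10 genes and -0.01 over all genes tested. The edgeR test called 0.0% of genes in this comparison (0 genes, with 2621 at an unadjusted p below 0.05), and gave adjusted p-values of 0.0698 to 0.0767 for Nos2 and the C1q chains. The Nos2 call was lost on leaving out any of 4 of the 12 tumors, with adjusted p-values from 0.000105 to 0.0675.

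In NR lines the aPD1 tumors had 6370 and 4025 normalized counts of Nos2 in CC036F1, against 2171 and 3886 with isotype. CC079F1 had 1274 and 2531 against 1427 and 1433, and CC080F1 had 1676 against 1615 and 1050. The mean was higher with aPD1 in all 6 lines, by 0.33 to 1.84 on the log2 scale, with overlap in CC079F1. The difference in NR lines was 0.53 ± 0.27 (adjusted p = 0.914). None of the 10 genes was called there by DESeq2 (0.0448% of genes) or by edgeR (0.0204%), and 2 of them, Arg1 and Nos2, had an unadjusted p below 0.05 by DESeq2. Nos2 did not separate the classes (-0.28 ± 0.31, adjusted p = 0.615, and 0.33 without CC036F1, adjusted p = 0.543).

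**Figure D2:**
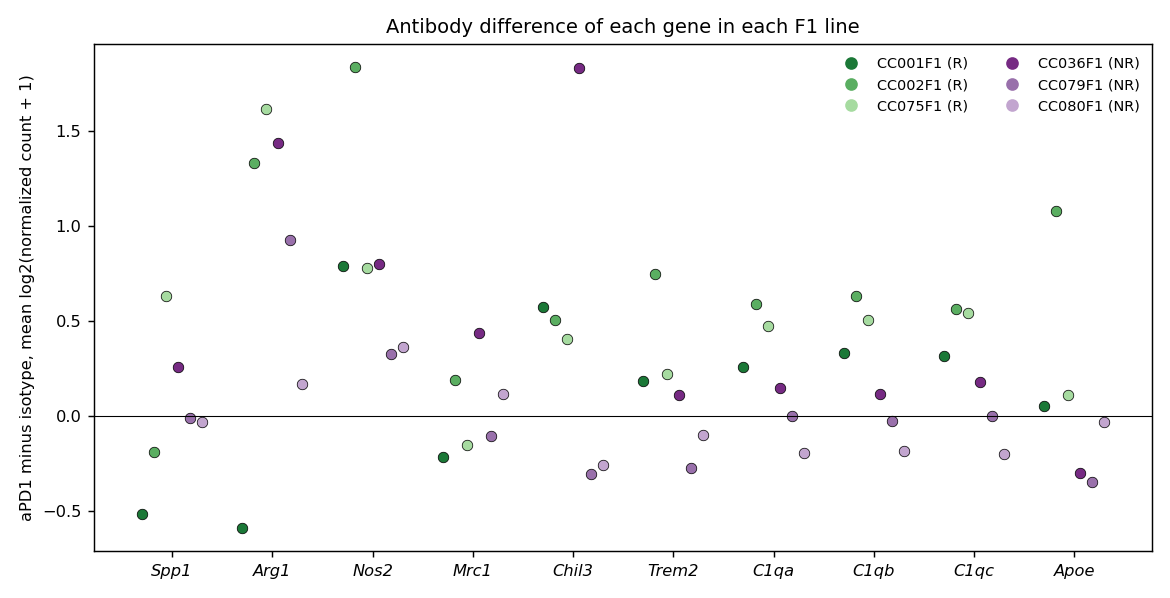
Difference of the mean log2 normalized count between aPD1 and isotype tumors for each gene in each of the 6 host lines, R and NR lines marked apart. Nos2 lies above 0 in all 6 lines. Apoe lies above 0 in the 3 R lines (0.057 to 1.079) and below 0 in the 3 NR lines (-0.347 to -0.032).

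Arg1 (ENSMUSG00000019987, chr10:24915221-24927484), which competes with nitric oxide synthase for arginine, varied far more. With isotype it was 4306 and 4102 normalized counts in CC001F1, 1880 and 1788 in CC002F1 and 1545 and 645 in CC075F1, and with aPD1 it was 2564 and 3051, 6255 and 3409, and 4006 and 2349. The direction was downward in CC001F1 (-0.59 on the log2 scale) and upward in CC002F1 (1.33) and CC075F1 (1.62). The antibodies did not overlap in any R line, which with 2 tumors against 2 often arises by chance. In NR tumors Arg1 was 2619 and 6812 with isotype and 6275 and 20975 with aPD1 in CC036F1. It was 1095 and 900 against 1119 and 3183 in CC079F1, and 3178 and 1752 against 2653 in CC080F1. The difference with aPD1 was 0.80 ± 0.39 in R lines (adjusted p = 0.28) and 1.04 ± 0.48 in NR lines (adjusted p = 0.836). Between classes it was -0.55 ± 0.43 (adjusted p = 0.452), and without CC036F1 its sign turned (0.54, adjusted p = 0.383).

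Spp1 overlapped between the classes. It ran from 4610 to 10864 normalized counts (median 9420) in R isotype, from 6573 to 10051 (median 8966) in R aPD1 and from 7074 to 16794 (median 7947) in NR isotype tumors. With aPD1 the NR tumors had 9536, 17828, 9979, 8494 and 7746. The ranges overlapped throughout, and the highest values, 16794 and 17828, were the 2 CC036F1 tumors that stood apart. The difference between R and NR was -0.22 ± 0.18 over all tumors (95% interval -0.58 to 0.13, adjusted p = 0.47), and 0.01 without CC036F1 (adjusted p = 0.98). The aPD1 difference in R lines was -0.05 ± 0.22 (adjusted p = 0.95), with CC001F1 at -0.51 and CC075F1 at 0.63, each with antibodies that did not overlap.

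Mrc1 (ENSMUSG00000026712, chr2:14229392-14332057) ran from 5195 to 7493 (median 5927) in R isotype, from 4780 to 7004 (median 5850) in R aPD1 and from 5214 to 7787 (median 6699) in NR isotype tumors, and was 6315, 11857, 5540, 6164 and 7543 in NR aPD1 tumors. Apart from the CC036F1 tumor at 11857, the groups overlapped closely, with a class difference of -0.24 ± 0.11 (adjusted p = 0.125, and -0.14 without CC036F1, adjusted p = 0.361) and an aPD1 difference in R lines of -0.06 ± 0.10 (adjusted p = 0.841). Chil3 (ENSMUSG00000040809, chr3:106147554-106167564) was low and uneven. It has near-identical neighbours, and how the authors' counting assigned reads among them could not be checked, so its values are uncertain. Its deposited expected counts were all whole numbers. Of the 10 genes Spp1 alone had values that were not whole, 17 of them, changed by at most 0.5 on rounding. It ran from 21.5 to 144 normalized counts (median 44.2) in R isotype, from 19.4 to 190 (median 106) in R aPD1 and from 27.8 to 282 (median 73.3) in NR isotype tumors, and was 113, 1265, 18.6, 33.6 and 90.8 in NR aPD1 tumors. The class difference of Chil3 was -1.10 ± 0.61 (adjusted p = 0.236), and without CC036F1 its sign turned (0.40, adjusted p = 0.725).

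**Figure D3:**
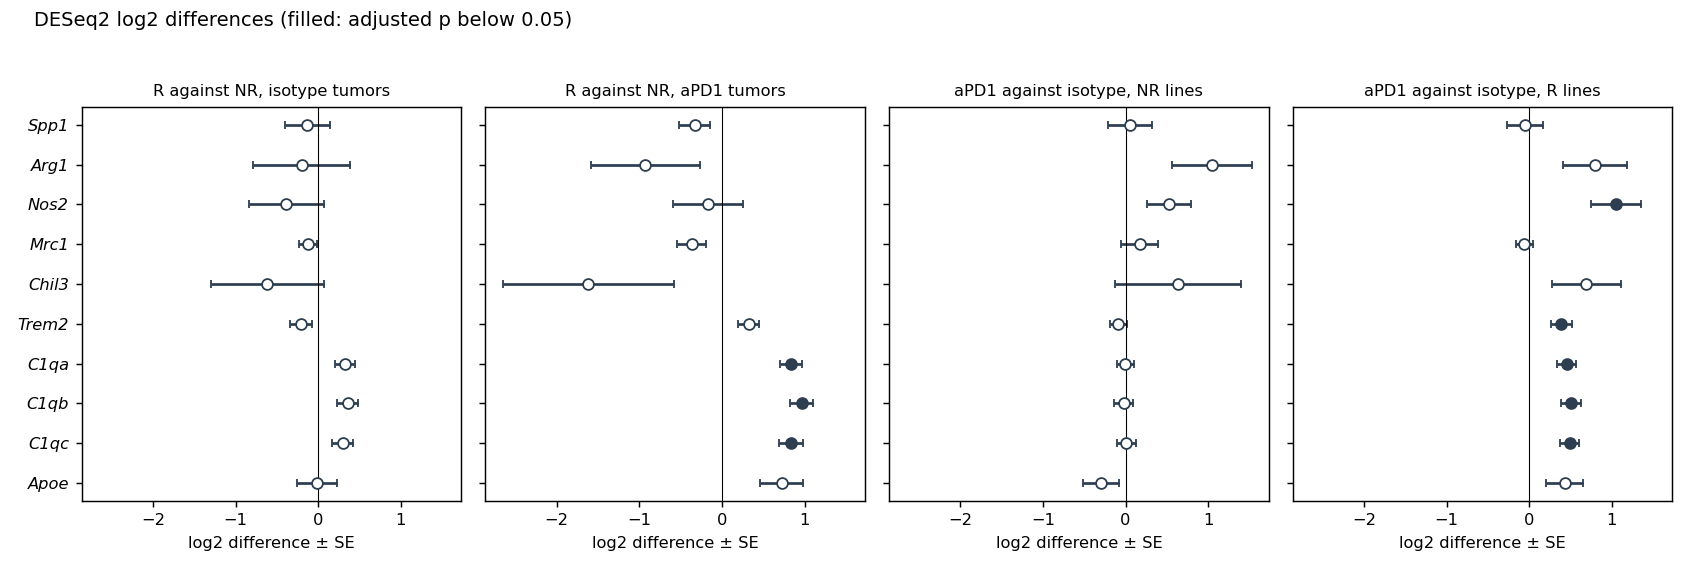
DESeq2 log2 differences ± SE of the 10 genes between R and NR tumors (isotype tumors, aPD1 tumors) and between aPD1 and isotype tumors (NR lines, R lines), with filled points for an adjusted p below 0.05. The C1q chains are filled in aPD1 tumors and in R lines, where Nos2 has the largest called change (1.05).

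The likelihood-ratio test of host line, which ignores the classes, called 6 of the 10 genes where 16% of all genes were called. These were C1qb (adjusted p = 4.34e-07), C1qa (2.25e-06), Chil3 (2.75e-05), Nos2 (0.000116), Arg1 (0.000259) and C1qc (0.00409). C1qa means ordered the lines as CC075F1 (15390 ± 4399 SD, n = 4), CC001F1 (14598 ± 3295, n = 4), CC002F1 (14314 ± 3364, n = 4), CC080F1 (10977 ± 850, n = 3), CC079F1 (10351 ± 312, n = 4) and CC036F1 (8220 ± 1727, n = 4). Each SD pools isotype and aPD1 tumors, and no pair of lines was tested. Over both antibodies the ranges of the R lines overlapped, as did those of CC080F1 and CC079F1, while all CC036F1 tumors lay below all others. With isotype alone, CC002F1 (11657 and 11157) lay below CC001F1 (12572 and 13695) and CC075F1 (12337 and 13083). CC079F1 (10318 and 10376) then also lay below CC080F1 (11227 and 11675). Over both antibodies C1qb separated CC079F1 (7504 to 8090) from CC080F1 (9341 to 10894), which C1qa did not.

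Chil3 ordered the lines differently. CC075F1 (115 to 190), CC080F1 (90.8 to 109) and CC079F1 (18.6 to 35.1 normalized counts) formed ranges that did not overlap, although CC075F1 is an R line and the other two are NR lines. CC002F1 (21.6 to 66.4) overlapped CC079F1, and CC001F1 (19.4 to 146) and CC036F1 (39.1 to 1265) overlapped several lines. Arg1 and Nos2 were highest in CC036F1, with means of 9170 ± 8087 and 4113 ± 1725 (SD, n = 4). Without CC036F1, where 7.18% of genes were called, 4 of the 10 genes were called by line. These were Chil3 (adjusted p = 6.84e-05), C1qb (0.000173), C1qa (0.021) and C1qc (0.0212), while Arg1 (0.213) and Nos2 (0.121) were not.

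Whether aPD1 acted differently in the classes was tested as an interaction. None of the 10 genes was called by DESeq2, where 0.0342% of genes were, or by edgeR, where 0.0% (0 genes) were, and 5 had an unadjusted p below 0.05 by either tool. The antibody effect was larger in R lines by 0.54 ± 0.18 on the log2 scale for C1qb (adjusted p = 0.408), 0.49 ± 0.18 for C1qc (adjusted p = 0.485), 0.48 ± 0.17 for Trem2 (adjusted p = 0.437), 0.47 ± 0.17 for C1qa (adjusted p = 0.472) and 0.74 ± 0.32 for Apoe (adjusted p = 0.601). In NR lines the C1q chains had antibody differences of -0.02 to 0.01, with a 95% interval of -0.21 to 0.20 for C1qa. A call in R lines and none in NR lines is therefore not shown to be a difference between them.

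To ask how each gene stood relative to macrophage transcripts, libraries were scaled by the 10 pan-macrophage markers. On this scale the median of all genes was lower in R than in NR tumors by a log2 difference of -0.37, since macrophage markers were higher in R over all tumors. The CC002F1 isotype tumors were an exception, with marker sums (49210 and 48250) within the NR range. The C1q chains stayed above 0: C1qb by 0.28 ± 0.08 (adjusted p = 0.00177), C1qa by 0.20 ± 0.07 (adjusted p = 0.0165) and C1qc by 0.18 ± 0.08 (adjusted p = 0.0295), and 1.81% of all genes were called higher. Mrc1 (-0.59 ± 0.13, adjusted p = 0.000113), Trem2 (-0.32 ± 0.11, adjusted p = 0.00711), Spp1 (-0.62 ± 0.23, adjusted p = 0.015) and Nos2 (-0.70 ± 0.31, adjusted p = 0.0482) were called lower per macrophage transcript, on a scale on which 48.3% of all genes were. Arg1 (-0.98 ± 0.44, adjusted p = 0.0521) and Apoe (-0.04 ± 0.15, adjusted p = 0.854) were not called, and Chil3 received no p from DESeq2. Without CC036F1, C1qb kept its call (0.21 ± 0.08, adjusted p = 0.0346), as did Mrc1 (-0.46 ± 0.13, adjusted p = 0.00508) and Trem2 (-0.45 ± 0.12, adjusted p = 0.00179). C1qa (0.09 ± 0.07, adjusted p = 0.25), C1qc (0.08 ± 0.07, adjusted p = 0.304), Spp1 (adjusted p = 0.0844) and Nos2 (adjusted p = 0.937) did not. In isotype tumors alone no chain was called on this scale (0.116 to 0.18, DESeq2 adjusted p = 0.243 to 0.435), where 0.64% of genes were called higher. In aPD1 tumors alone C1qb was called (0.355 ± 0.125, adjusted p = 0.0103), where 1.29% were. There C1qa (0.227 ± 0.123, adjusted p = 0.114) and C1qc (0.222 ± 0.122, adjusted p = 0.12) were not called.

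For aPD1 in R lines the rise of the C1q chains did not remain on the macrophage scale: the differences were 0.01 ± 0.10 for C1qa, 0.06 ± 0.10 for C1qb and 0.04 ± 0.10 for C1qc, with adjusted p-values of 0.643 to 0.933. Trem2 was at -0.05 ± 0.14 and Nos2 at 0.64 ± 0.31 (adjusted p = 0.0699), with Apoe at -0.01 ± 0.17, Arg1 at 0.34 ± 0.34 and Chil3 at 0.18 ± 0.37. Spp1 (-0.45 ± 0.20, adjusted p = 0.0458) and Mrc1 (-0.46 ± 0.16, adjusted p = 0.0132) were called lower, as were 49.6% of all genes, whose median was -0.42. With Adgre1, Csf1r and Cd68 alone as the reference, Nos2 (0.69, adjusted p = 0.0395) was the called gene of the 10.

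**Figure D4:**
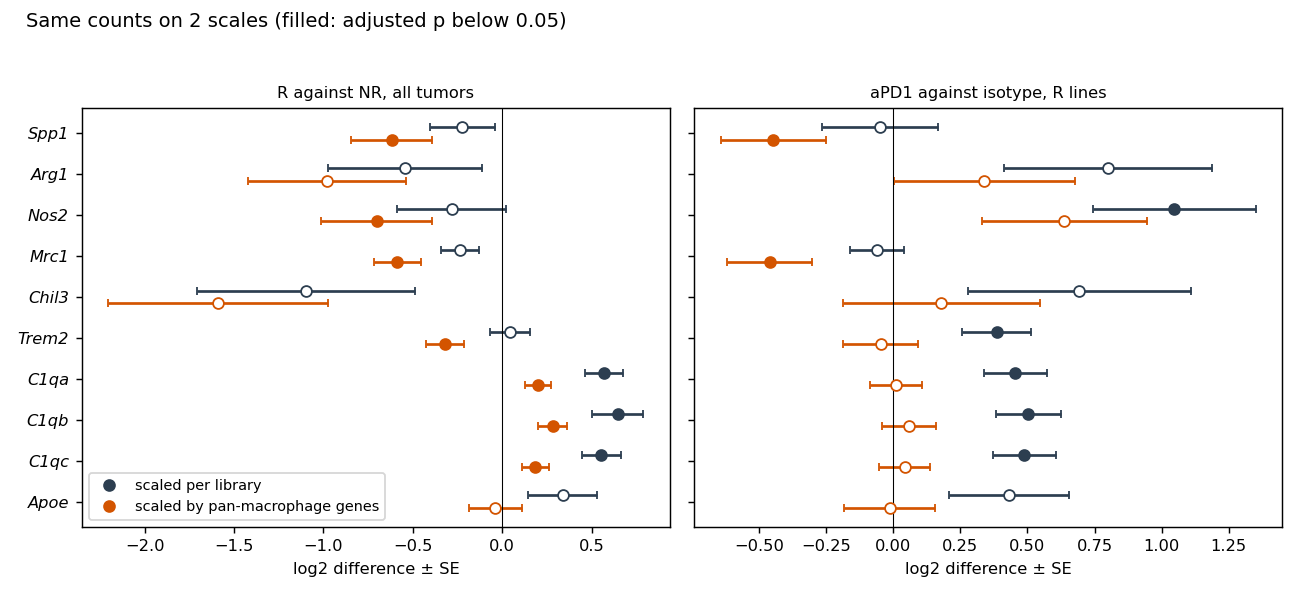
Log2 differences ± SE of the 10 genes with each library scaled to a common depth (dark) and by 10 pan-macrophage markers (orange), for R against NR over all tumors and for aPD1 against isotype in R lines, with filled points for an adjusted p below 0.05. On the macrophage scale the C1q chains stay above 0 between classes (0.18 to 0.28) and lie near 0 for aPD1 (0.01 to 0.06).

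The 45 pairs of genes were correlated over the 23 tumors on the log2 scale. With Pearson's r, 16 pairs had an adjusted permutation p below 0.05, of which 13 were positive and 3 negative, and with Spearman's rho 9 did. The C1q chains correlated at 0.97 to 0.99. C1qa and C1qc, for example, had r = 0.99 (permutation p = 1e-05, the smallest that 100000 resamples can give) and rho = 0.97, with 0.99 in deep and 0.97 in shallow libraries. Apoe followed the chains (with C1qa r = 0.79, rho = 0.66, adjusted permutation p = 7.5e-05 and 0.00598) and Trem2 (r = 0.76, rho = 0.75, adjusted permutation p = 7.5e-05 and 0.0009). Without the 2 tumors farthest from the median on the x axis, r was 0.65 for C1qa and Apoe and 0.70 for Trem2 and Apoe. Among the 6 shallow libraries alone these were 0.06 and 0.32, against 0.86 and 0.80 among the deep ones. Trem2 and C1qa had r = 0.65 and rho = 0.51 (adjusted permutation p = 0.00375 and 0.0653), with 0.77 in deep and -0.38 in shallow libraries.

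Spp1 correlated negatively with Apoe, and by Pearson's r but not by rho with C1qb and C1qc. Its r was -0.69 with Apoe (rho = -0.60, adjusted permutation p = 0.00186 and 0.0148), -0.52 with C1qb (rho = -0.41, adjusted permutation p = 0.036 and 0.174) and -0.52 with C1qc (rho = -0.36, adjusted permutation p = 0.0394 and 0.247). With C1qa (r = -0.49, rho = -0.28, adjusted permutation p = 0.0503 and 0.451) and Trem2 (r = -0.47, rho = -0.46, adjusted permutation p = 0.0511 and 0.1) it did not pass. For Spp1 and Apoe, r was -0.58 without the 2 farthest tumors, -0.72 in deep and -0.22 in shallow libraries. Without CC036F1 it was -0.40 (adjusted permutation p = 0.182), and no negative pair of the 45 then passed. For Spp1 with C1qb and C1qc, the shallow libraries had the opposite sign (0.64 and 0.88, against -0.65 and -0.64 in deep ones). Spp1 correlated positively with Arg1 (r = 0.64, rho = 0.39, adjusted permutation p = 0.00663 and 0.194), which rested on the outlying tumors: r was 0.29 without the 2 farthest and 0.37 without CC036F1. Arg1 and Nos2 were positively correlated (r = 0.60, rho = 0.69, adjusted permutation p = 0.0124 and 0.0039), with r = 0.62 without the 2 farthest tumors, 0.59 in deep and 0.75 in shallow libraries, and 0.43 without CC036F1 (adjusted permutation p = 0.16). The pairs that passed without CC036F1 were 7, all positive, and all among the C1q chains, Apoe and Trem2.

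Because tumors of a line share a genotype, deviations from the mean of each line and antibody group were also correlated, over the 11 groups of 2. In an exact permutation that swapped the 2 tumors within each group, 3 pairs passed, C1qa with C1qb (r = 0.99), Trem2 with C1qc and Arg1 with Chil3 (r = 0.73), each at an adjusted p of 0.0439. Of the 45 pairs, 14 had an unadjusted p below 0.05. Spp1 and Apoe had r = -0.76 within groups (exact permutation p = 0.0156, adjusted 0.0659). Without CC036F1 none of the 45 pairs passed within groups by this exact permutation test, and 8 had an unadjusted p below 0.05.

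**Figure D5:**
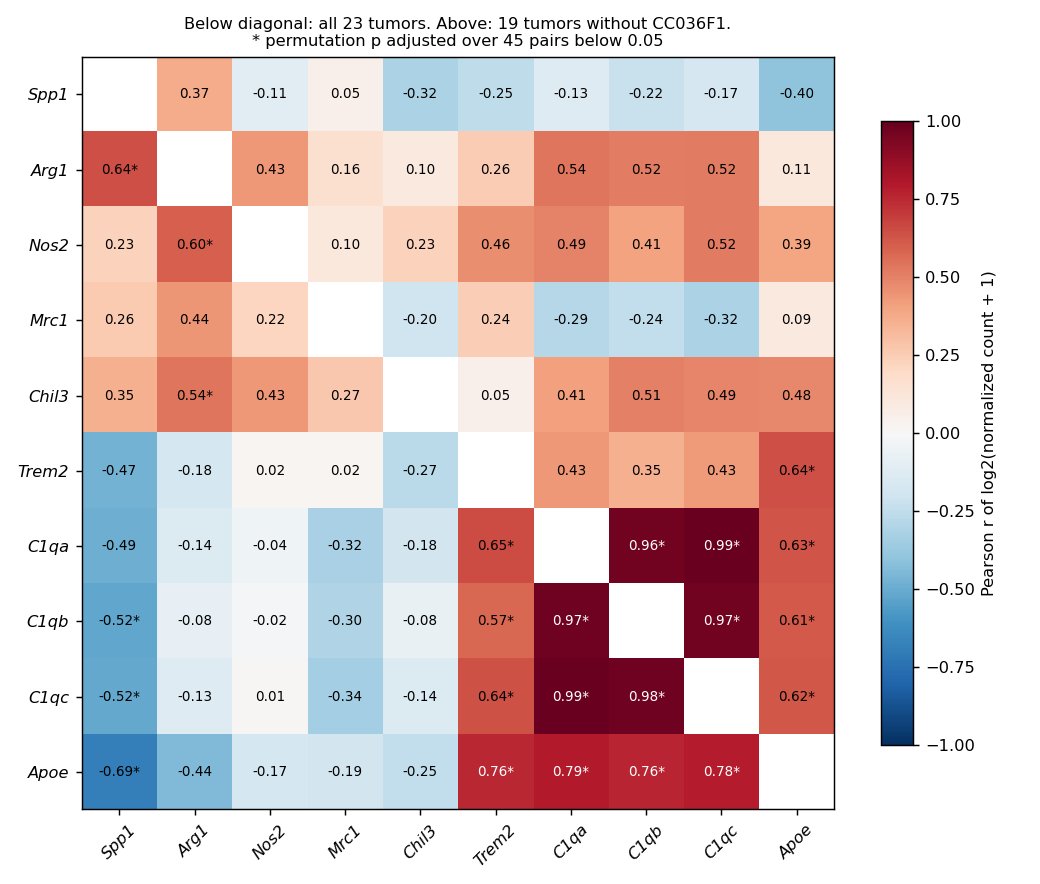
Pearson's r of log2(normalized count + 1) for the 45 pairs of the 10 genes, over 23 tumors below the diagonal and over the 19 tumors without CC036F1 above it, with an asterisk for an adjusted permutation p below 0.05. C1qa, C1qb, C1qc, Apoe and Trem2 are positive with each other (0.57 to 0.99), Spp1 is negative with all 5 (-0.47 to -0.69), 3 of these with an asterisk, and no negative pair has an asterisk above the diagonal.

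Against the mean log2 level of the 10 pan-macrophage markers, 5 of the 10 genes passed by Pearson's r and 4 by Spearman's rho. C1qa (r = 0.93), C1qb (0.92), C1qc (0.94), Apoe (0.72) and Trem2 (0.55) correlated with it, at adjusted permutation p-values of 3.33e-05 for the chains, 0.0006 for Apoe and 0.013 for Trem2. With rho, Apoe had 0.65 (adjusted permutation p = 0.00287) and Trem2 0.44 (adjusted permutation p = 0.0717). In shallow libraries the chains had r = 0.92 to 0.94, Apoe 0.02 and Trem2 -0.68, against 0.921 to 0.945, 0.79 and 0.72 in deep ones. Nos2 (r = 0.24), Arg1 (0.08), Chil3 (0.05), Mrc1 (-0.21) and Spp1 (-0.34, adjusted permutation p = 0.199) did not pass. Among the 12055 genes with a mean of at least 100, other myeloid genes were closest to the C1q chains: Il10ra, Aif1 and Tyrobp for C1qa (r = 0.97 each) and for C1qc (0.97 to 0.98), and Il10ra, Pld4 and Mpeg1 for C1qb (0.97 to 0.98). Apoe was closest to Tlr1 (0.91), Arhgef6 and Cmklr1, Trem2 to Leprot (0.84), Lgals9 and Zeb2os, and Nos2 to Tnfaip3 (0.88), Mmp12 and Hk1. Arg1 was closest to Osmr (0.84), Slc7a2 and Egr2, of which Slc7a2 encodes an arginine transporter. Mrc1 was closest to Alox5 (0.76), Mgl2 and Plxdc2, and Chil3 to Aamp (0.76), Cnppd1 and Atp6v1b2. The closest to Spp1 was Avil (0.88), followed by Rhoq and Snhg12. These values describe 23 tumors that share lines and depths.

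The wider pathways of the 10 genes were read from lists of their partners, beside 7.66% of all genes called higher and 6.78% lower in R, and 4.85% called higher and 0.408% lower with aPD1 in R lines. All list results are DESeq2 calls. For aPD1 in R lines edgeR called 0.0% of all genes, so no list call there was shared by edgeR. Of 14 TREM2 and lipid-handling genes tested, 5 were higher and 1 lower in R over all tumors (median log2 difference 0.23, against 0.00 over all genes). Nr1h3, a sterol-sensing receptor that induces lipid export, was higher by 1.44 ± 0.22, with its target Abcg1 (0.73 ± 0.21) and the TREM2 adaptor Tyrobp (0.57 ± 0.13) also higher and Cd63 lower (-0.24 ± 0.06). With aPD1 in R lines 6 of these 14 rose and none fell (median 0.36, against -0.01 over all genes), among them Lgals3 (0.74 ± 0.16), the cholesterol exporters Abca1 (0.63 ± 0.17) and Abcg1 (1.09 ± 0.31), and Tyrobp (0.53 ± 0.14).

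Of 7 partners of C1q tested, 4 were higher in R and none lower (median 0.56): the C1 inhibitor Serping1 (0.91 ± 0.26), complement C2 (0.73 ± 0.22), the C1q-binding scavenger receptor Scarf1 (0.63 ± 0.15) and Cd93 (0.54 ± 0.10). With aPD1 in R lines C2 (0.99 ± 0.25) and C4b (0.95 ± 0.29) rose. Osteopontin receptors were mixed between classes, with 2 of 8 higher (the integrin chain Itga4, 0.93 ± 0.18, and Cd44, 0.17 ± 0.05) and 1 lower (Itgb1, -0.11 ± 0.03). With aPD1 in R lines Itga4 (0.52 ± 0.16) and Itga5 (0.32 ± 0.09) rose.

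Of 14 genes of interferon-gamma activation, most of them targets that the cytokine induces as it does Nos2, 10 were higher in R and none lower (median 0.60), with Ifng at 1.89 ± 0.33, Cxcl9 at 1.56 ± 0.29, Ciita at 1.52 ± 0.28 and Fcgr1 at 0.83 ± 0.17. In the same R lines 10 rose with aPD1 (median 0.73), including Tnf (1.10 ± 0.22), Cd40 (0.91 ± 0.21) and Ciita (0.86 ± 0.17). Of 11 interleukin-4 and interleukin-13 genes tested, 2 were higher in R (Irf4, 0.86 ± 0.24, and Il4ra, 0.42 ± 0.09) and Mgl2 was lower (-1.34 ± 0.48). With aPD1 in R lines 1 of 10 tested rose (Il4ra, 0.48 ± 0.14), a share near that of all genes.

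Of 8 resident-macrophage genes, Folr2 (-0.88 ± 0.16) and F13a1 (-1.08 ± 0.20) were lower in R and none was higher, and none moved with aPD1. In arginine metabolism 1 of 11 genes was higher in R, Ass1 (1.15 ± 0.26), which rebuilds arginine from citrulline. Ddah2 (-0.44 ± 0.10) and Oat (-0.09 ± 0.03) were lower, and the share called higher was near that of all genes. Ass1 rose with aPD1 in R lines (0.87 ± 0.28). In NR lines aPD1 gave no call on any of these lists, where 0.0448% of all genes were called. No difference of the antibody effect between the classes is given for these lists. The part of the T-cell markers given above in these results was not tested.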

How the data were processed

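Bulk poly(A) RNA was sequenced from 23 MC38 tumors. The authors aligned reads with Bowtie 1.2.3 to founder-strain transcriptomes (GENCODE vM23, GRCm38) and deposited expected counts, which are estimated reads per gene not scaled for depth. They were rounded to whole numbers (16.95% of values were not whole). Symbols and positions came from GENCODE vM21, which matched 26681 of 26869 identifiers. Replicate pairs differed beyond sampling noise (chi-square per degree of freedom 9.73 to 135.86), so every library was its own sample. Tumors were grouped by the labels' genotype and treatment, and classes came from the study's text. DESeq2 1.42.0 (R 4.3.3) was used with default options, at least 5 summed counts and Benjamini-Hochberg adjusted p below 0.05 over all genes. Class was tested with antibody as a term, antibody with line as a term, line by a likelihood-ratio test. Fits on part of the tumors had size factors of their own, while printed tumor values used those of all 23. Deep libraries had at least 25000000 counts. Correlations used log2(normalized count + 1), two-sided, with 100000 permutations (scipy 1.17.1) or exact swaps within groups, adjusted over the 45 pairs. Alternatives were edgeR 4.0.16, limma 3.58.1, TMM factors, deep libraries only, depth as a term, counts summed per line, a replicate block, and leaving out each tumor or line. Leaving out CC036F1 in the fits where it was named apart, edgeR on deep libraries and rank correlation were added after seeing the data.

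All 10 genes were named in every comparison. Pathway genes were the up to 4 per list with the lowest p among calls, for class over all tumors and for aPD1 in R lines, and the 3 genes most like each by r. A pathway gene that this rule names is not reported here. The genes and lists were chosen with earlier results of these data known. Scripts were tested on simulated counts.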

Additional observations from a re-analysis of the deposited data

Results flagged for a closer look

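Of 40 sets of 5 or 6 tumors tested for a tumor far from the others (each gene in each class and antibody), 8 held such a tumor. The nominal rate of about 1 in 20 holds for independent sets of normally distributed values. These were untransformed counts of genes that move together (C1qa and C1qc at r = 0.99), so no excess over chance is read from the 8. Of these, 7 concern replicate 2 tumors of CC036F1. The isotype tumor was far below the other NR isotype tumors in C1qa (6006.3), C1qc (5543.1) and Apoe (9194.6) and far above them in Chil3 (281.97 normalized counts). The aPD1 tumor was far above the other NR aPD1 tumors in Spp1 (17828), Arg1 (20975) and Chil3 (1264.7). The last was the CC075F1 isotype tumor numbered replicate 2, with the lowest Spp1 (4609.8) of the R isotype tumors.

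The mean log2 level of Apoe was higher with aPD1 in all 3 R lines and lower in all 3 NR lines. Several differences were near 0, at 0.057 in CC001F1, 0.114 in CC075F1 and -0.032 in CC080F1. The tumors of the antibodies did not overlap in CC002F1 (1.079) and CC079F1 (-0.347) and overlapped in the other lines. In deep libraries the uncalled NR difference changed sign, as given below. In the DESeq2 fit the antibody effect was larger in R lines by 0.74 on the log2 scale (interaction, adjusted p = 0.601).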

How the results depend on the processing

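Of the single values under alternatives other than leaving out a tumor or line, 613 kept direction and side of the threshold, 47 lost a call, 8 gained one and 38 changed sign, none of the 38 called. The cause was not tested. Leaving out each tumor or line gave 1288, 43, 40 and 79. C1qa, C1qb and C1qc were called under all alternatives over all tumors and in aPD1 tumors.

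Counts of the 10 genes called moved as follows. In aPD1 tumors the deep libraries gave 5 (3 as reported above). In R lines edgeR gave 0, also on deep libraries (5 as reported above). On the macrophage scale, leaving out CC036F1 gave 3 for the classes (7 as reported above) and the 3-gene reference gave 1 for aPD1 in R lines (2 as reported above). In place of 16 correlated pairs there were 9 with Spearman's rho, 9 without the 2 farthest tumors, 7 without CC036F1, and 26 after subtracting the macrophage mean. Within groups 3 pairs became 0 in deep libraries, where an exact permutation p cannot go below 0.0625, and 0 without CC036F1. Leaving out 1 tumor or line gave 0 to 3 in isotype tumors (1 without CC036F1 or its isotype replicate 2, 2 without either CC080F1 isotype tumor, 3 without CC080F1), 3 to 5 in aPD1 tumors (5 without CC075F1 aPD1 replicate 2), 3 to 6 in R lines (3 without CC001F1 isotype replicate 1, CC001F1 aPD1 replicate 2, CC002F1 aPD1 replicate 1 or CC075F1 isotype replicate 1), 0 to 3 for the interaction (3 without CC001F1 aPD1 replicate 1, 1 without CC036F1 isotype replicate 2) and 1 to 2 on the macrophage scale in R lines. Over all genes, alternatives called 584 to 2853 genes between classes, 0 to 1838 in isotype and 131 to 1577 in aPD1 tumors, 0 to 1386 in R lines, 2 to 242 in NR lines, 0 to 305 for the interaction, 1278 to 3506 by line, and 8190 to 11616 and 5309 to 11059 on the macrophage scale.

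Replicate numbers did not pair tumors: deviations of same-numbered tumors of a line correlated at -0.016 to 0.089 over 5 pairs. With the replicate number as a replicate block, 3 of the 10 genes were called over all tumors, 0 in isotype tumors, 4 in aPD1 tumors (with Apoe, adjusted p = 0.0415), 4 in R lines (without Trem2, adjusted p = 0.06), 0 in NR lines, 0 for the interaction and 6 by line. C1qc in NR lines became -0.004.

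Uncalled log2 differences that changed sign were as follows. Deep libraries gave Apoe 0.25 in isotype tumors, Mrc1 0.04 in R lines, Spp1 -0.20, C1qa 0.13, C1qb 0.15 and Apoe 0.14 in NR lines, Spp1 0.13 and Arg1 0.62 for the interaction, and on the macrophage scale Apoe 0.13 between classes and, in R lines, Chil3 -0.02 and Apoe 0.12. The same libraries in edgeR gave Apoe 0.26, Mrc1 0.034, Spp1 -0.20, C1qa 0.13, C1qb 0.15, Apoe 0.14, Spp1 0.11 and Arg1 0.59. Depth as a term gave Apoe 0.15 in isotype tumors and Spp1 -0.064, C1qa 0.062 and C1qb 0.053 in NR lines. edgeR gave C1qa 0.006 in NR lines and Chil3 -0.09 for the interaction, TMM factors C1qa 0.006 in NR lines, line sums Apoe 0.094 and limma Apoe 0.085 in isotype tumors, and the 3-gene reference Apoe 0.013 in R lines. Without CC036F1, Spp1 was -0.033, Mrc1 -0.021, Chil3 -0.31 and C1qc -0.08 in NR lines, Arg1 0.083 for the interaction, and Arg1 0.20 and Chil3 0.05 on the macrophage scale. After subtracting the macrophage mean, Trem2 and C1qb had r = -0.16.

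Leaving out 1 tumor or line spanned 0 for these genes. Over all tumors these were Spp1 (-0.34 to 0.008), Arg1 (-1.01 to 0.54), Nos2 (-0.63 to 0.33), Chil3 (-1.91 to 0.40, lowest adjusted p 0.0487) and Trem2 (-0.12 to 0.14). In isotype tumors they were Spp1 (-0.29 to 0.093), Arg1 (-0.90 to 0.46), Nos2 (-0.83 to 0.095), Chil3 (-1.58 to 0.046) and Apoe (-0.23 to 0.21), and in aPD1 tumors Arg1 (-1.47 to 0.64), Nos2 (-0.51 to 0.63) and Chil3 (-2.30 to 1.05). In R lines they were Spp1 (-0.22 to 0.059) and Mrc1 (-0.11 to 0.014), and in NR lines Spp1 (-0.11 to 0.23), Mrc1 (-0.025 to 0.26), Chil3 (-0.37 to 0.94), C1qa (-0.11 to 0.088), C1qb (-0.14 to 0.08) and C1qc (-0.11 to 0.10). For the interaction they were Spp1 (-0.27 to 0.073), Arg1 (-0.51 to 0.18) and Chil3 (-0.43 to 1.06). On the macrophage scale they were Apoe (-0.11 to 0.026) between classes and, in R lines, Chil3 (-0.26 to 0.34), Trem2 (-0.11 to 0.027), C1qa (-0.021 to 0.024) and Apoe (-0.14 to 0.079).

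The 2 tumors per group and 6 shallow libraries limit precision, and 3 lines per class limit what holds for classes. Rounded expected counts do not carry the uncertainty of read assignment.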
